A study of Mus musculus with 2 samples.

Results

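The 10 genes described here, of 19169 genes in the table, encode enzymes and receptors of the prostaglandin and leukotriene pathways: the cyclooxygenases Ptgs1 and Ptgs2, the prostanoid synthases Ptges, Ptgis and Ptgds, the prostaglandin-degrading enzyme Hpgd, the prostaglandin E2 receptors Ptger2 and Ptger4, and the leukotriene genes Ltc4s and Alox5ap. They were taken by name from a list, and all 10 were found in the table. The cells came from mouse gastrocnemius muscle taken 14 days after injury with cardiotoxin (CTX), a snake venom toxin that destroys myofibers. One library was labelled WT-CTX and the other GSDME-KO-CTX, from mice with a global knockout of Gsdme, which encodes the pore-forming protein gasdermin E. The study's methods name C57BL/6J as the WT strain and male mice for its animal experiments, and the age of these mice is not given in the sources used here. Both groups were injured, and no library of uninjured muscle was analysed here. The study's methods give 5 mice per genotype, and how many mice went into each library is not given in the sources used here.

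With 1 library per genotype there was no replicate of either group, so no difference between the libraries could be tested. All intervals below cover counting error only. Levels are unique molecular identifiers (UMIs, each counting 1 captured transcript) summed over the cells of a class and given as counts per 1000000 UMIs of that class (CPM), with exact Poisson 95% intervals. A gene was called higher or lower in KO where its CPM differed at least 1.5-fold and it had at least 50 UMIs over both libraries, in a class with at least 50 cells in each. The WT library held 6354 cells with a median of 5740 UMIs, and the KO library held 7078 cells with a median of 5962.5 UMIs. The libraries shared 4 cell barcodes. RNA of the targeted gene did not separate them: Gsdme stood at 5.03 CPM (4.39 to 5.73, 225 UMIs) in the library labelled WT and at 4.65 CPM (4.08 to 5.28, 237 UMIs) in the library labelled KO. The deleted part of the gene is not given in the sources used here, so this level was not used as a check of the labels, and "WT" and "KO" below mean the libraries so labelled.

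Prostanoids are made in steps. Phospholipases free arachidonic acid from membranes, a cyclooxygenase turns it into prostaglandin H2, and terminal synthases make prostaglandin E2 (PGE2), prostacyclin, prostaglandin D2 or thromboxane from that common intermediate. In the parallel branch, 5-lipoxygenase and its helper protein FLAP (Alox5ap) start leukotriene synthesis, and Ltc4s joins leukotriene A4 to glutathione. PGE2 acts on nearby cells through the EP receptors and is inactivated by 15-hydroxyprostaglandin dehydrogenase (Hpgd). In injured muscle PGE2 is known to act on muscle stem cells (MuSCs), and inhibitors of cyclooxygenase-2 are known to slow repair.

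Cells were clustered without these genes and clusters were named from marker lists into 16 classes, and each class carries the ending "-like". Fibro-adipogenic progenitor (FAP)-like cells, the stromal cells of muscle marked by Pdgfra, were the most numerous, with 1712 WT and 2191 KO cells. Endothelial-like cells numbered 1200 and 1198, macrophage-like cells 824 and 997, and tenocyte-like (tendon) cells 402 and 354. Of the marker genes, 8 of 9 for FAPs were higher in FAP-like cells than in all other cells in both libraries, the exception being Col1a1. For endothelial cells, macrophages and tenocytes 8 of 8 markers were. Several clusters stayed unnamed, 1 of them led by Lyz1, Retnla, Ccl6 and Ear2, with 109 WT and 143 KO cells, which is called the Lyz1-led cluster here.

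The 10 genes differed in how their UMIs were spread over the classes, and genes of the same step did not always share a class. Of Ptgs1 UMIs, FAP-like cells held 29.7% in WT and 34.8% in KO. Endothelial-like cells held 25.8% and 21.2% of them, macrophage-like cells 16.0% and 18.6%, and clusters without a name 27.1% and 22.7%. Of Ptgs2 UMIs, FAP-like cells held 70.5% in WT and 79.8% in KO, and of Ptges UMIs 81.9% and 85.8%. Tenocyte-like cells held 82.7% and 70.1% of Ptgis UMIs. Macrophage-like cells held 84.9% and 82.2% of Ltc4s UMIs, and 50.2% and 50.3% of Alox5ap UMIs. Clusters without a name, the Lyz1-led cluster included, held 31.5% and 28.9% of Alox5ap UMIs. They also held 28.4% and 25.5% of Ptger4 UMIs and 36.2% and 34.3% of Ptger2 UMIs. A gene was said to be led by 1 class when its CPM there was at least 2 times that of the next class in both libraries, over genes with at least 200 UMIs. Only the 16 named classes were ranked, and clusters without a name were left out. This held for 2 of the 8 members that passed this minimum, Ptgis in tenocyte-like and Ltc4s in macrophage-like cells, and for 11.0% of all 12205 genes that passed it. Ptgds and Ptger2 did not pass.

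**Figure D1:**
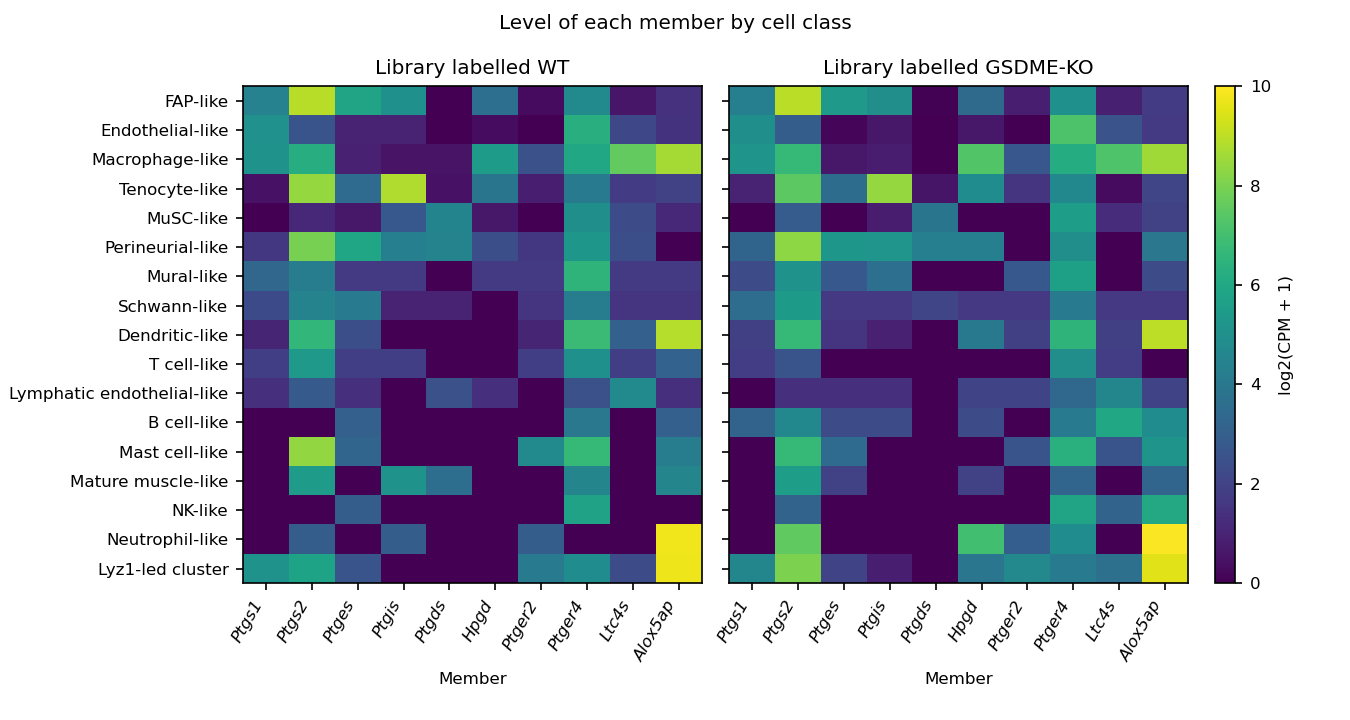
Level of each of the 10 genes (columns) in each cell class (rows), as log2(CPM + 1), in the library labelled WT (left) and GSDME-KO (right). Among the highest levels are Ptgs2 in FAP-like cells (492 and 500 CPM), Ptgis in tenocyte-like cells (446 and 340 CPM) and Alox5ap in neutrophil-like cells (875 and 973 CPM); rows of small classes rest on few UMIs.

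Ptgs2, Hpgd and Ptger4 carry the widest differences between the libraries described below, and the bases just before their transcription starts are shown. These bases lie before the annotated transcript, and no level given here was measured from them. The sequences are from RefSeq on build GRCm38.p6, whose promoter table held 8 of the 10 members and not Ptgis or Alox5ap. Each line gives the 150 bases before the annotated start on the gene's own strand, read 5′ to 3′. The motifs searched on both strands were the TATA box, whose letters are TATAAA, the GC box, spelled GGGCGG, the cyclic AMP response element with the letters TGACGTCA, the AP-1 motif, spelled TGANTCA, the C/EBP motif with the letters TTNNGCAA, and the NF-kB motif. Capitals mark the matches.

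Ptgs2, chr1:150099881-150100030, plus strand: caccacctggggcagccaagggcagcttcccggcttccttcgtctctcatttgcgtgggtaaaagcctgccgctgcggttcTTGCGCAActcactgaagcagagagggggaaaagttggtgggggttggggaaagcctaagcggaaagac
Hpgd, chr8:56294402-56294551, plus strand: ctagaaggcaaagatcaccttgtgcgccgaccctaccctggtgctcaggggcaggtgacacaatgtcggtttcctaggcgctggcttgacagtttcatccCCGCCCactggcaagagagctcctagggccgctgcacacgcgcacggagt
Ptger4, chr15:5244188-5244337, minus strand: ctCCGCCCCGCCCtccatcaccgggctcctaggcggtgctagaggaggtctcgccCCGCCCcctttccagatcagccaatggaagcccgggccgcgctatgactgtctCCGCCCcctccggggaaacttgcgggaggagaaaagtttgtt

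The capitals in Ptgs2 are a C/EBP match at bases -69 to -62 from the start, which 5.46% of 32851 promoters of the same length hold. The capitals in Hpgd and Ptger4 are GC boxes, 1 in Hpgd at -50 to -45 and 4 in Ptger4, the first pair sharing a base. A GC box stood in 28.6% of all promoters. A match says only that these letters are in the window.

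Ptgs2, the inducible cyclooxygenase, was highest in FAP-like cells, at 492 CPM (480 to 504, 6471 UMIs) in WT and 500 CPM (489 to 510, 9287 UMIs) in KO. The log2 ratio of KO over WT was 0.022 (-0.024 to 0.068), so these cells held Ptgs2 within 1.5-fold in both libraries. After each cell was thinned to 1000 UMIs, 28.0% of WT FAP-like cells (25.9 to 30.2) and 30.0% of KO cells (28.1 to 31.9) had a UMI of Ptgs2, against 57.0% and 61.2% unthinned. MuSC-like cells gave the background: 0 of 236 thinned WT cells, which allows a share of up to 1.27%, and 1 of 236 KO cells had one. The UMIs were unevenly spread, and the top 5% of FAP-like cells held 35.7% of them in WT and 36.1% in KO.

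Within the FAP-like cells the order by subset differed between the libraries. The Pi16 Dpp4 cluster, the progenitor-like pole of these cells, was highest in both libraries, at 811 CPM (779 to 844) in WT and 677 CPM (652 to 702) in KO. The Sfrp4 Gdf10 cluster stood at 420 and 434 CPM, and the Hsd11b1 Mme cluster at 414 and 481 CPM. The Clu Myoc cluster was lowest in WT, at 284 CPM (259 to 312), and stood at 450 CPM (419 to 483) in KO, where its interval overlaps those of the Sfrp4 Gdf10 and Hsd11b1 Mme clusters. The log2 ratio was -0.26 (-0.34 to -0.18) in the Pi16 Dpp4 cluster and 0.66 (0.49 to 0.83) in the Clu Myoc cluster, where the top 5% of cells held 61.4% of the Ptgs2 UMIs in WT and 61.9% in KO. The Sfrp4 Gdf10 cluster, which held 2384 of the 6471 Ptgs2 UMIs of FAP-like cells in WT and 4068 of 9287 in KO, had a log2 ratio of 0.050 (-0.024 to 0.12). In the Clu Myoc cluster 8 tenocyte markers summed to 416 CPM in WT and 592 CPM in KO, with 2 of 4 counted markers called higher, and 8 endothelial markers to 203 and 120 CPM, with 2 of 3 called lower. In the Pi16 Dpp4 cluster mature muscle markers summed to 107 CPM in WT and 310 CPM in KO, and erythroid markers to 121 and 2176 CPM. The part of these markers' cells in the Ptgs2 values was not tested.

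Tenocyte-like cells were the class with the clearest gap in Ptgs2 the other way, with 341 CPM (325 to 358, 1702 UMIs) in WT and 176 CPM (164 to 189, 752 UMIs) in KO. The log2 ratio was -0.96 (-1.08 to -0.83), and 101 of 9132 genes of the class, itself included, had a ratio as low or lower. The thinned share of cells was 14.2% (10.9 to 18.1) in WT and 9.79% (6.84 to 13.5) in KO, intervals that overlap. A single WT cell held 187 of the UMIs. Left out with its KO counterpart, a setting chosen after the data were seen, it left a log2 ratio of -0.88, and after thinning of all cells the ratio was -0.51. Macrophage markers were higher in the same KO cells (89.5 against 46.9 CPM summed over 8 markers, 4 of 5 counted markers called), as were mature muscle markers (128 against 88.8 CPM over 8 markers), and FAP markers were lower in sum (60440 against 78640 CPM over 9 markers), though 5 of the 9 were called higher and 1 lower. The part of these cells' makeup in the Ptgs2 gap was not tested.

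The Lyz1-led cluster differed the other way. Ptgs2 stood there at 54.8 CPM (41.2 to 71.6, 54 UMIs) in WT and 259 CPM (231 to 288, 328 UMIs) in KO, a log2 ratio of 2.24 (1.82 to 2.68). A UMI was read in 14 of 109 WT cells and 39 of 143 KO cells. Of 4412 genes counted in this cluster, 7, itself included, had a ratio as high or higher. Macrophage markers were also higher there in KO (1955 against 1382 CPM over 8 markers, none at 0), while monocyte markers were not (442 against 513 CPM over 7 markers, 2 at 0 in each library). The part of that makeup was not tested. Macrophage-like cells stood at 75.1 CPM (67.2 to 83.6) in WT and 104 CPM (95.7 to 113) in KO, for a log2 ratio of 0.47 (0.27 to 0.67) that stayed under the 1.5-fold line. The Trem2 Gpnmb cluster stood at 112 and 159 CPM, and the Lyve1 Cd163 cluster at 24.6 and 35.9 CPM.

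The remaining classes were below FAP-like cells. Perineurial-like cells, a shallow cluster with a median of 891.5 UMIs a cell, stood at 243 CPM (201 to 292) and 312 CPM (263 to 366). FAP markers summed there to 39906 CPM in WT and 44101 CPM in KO, against 51643 and 48930 CPM in FAP-like cells. The perineurial markers of these cells summed to 565 and 886 CPM, and the part of FAP RNA was not tested. Schwann-like cells stood at 21.3 CPM (23 UMIs) in WT and 42.2 CPM (39 UMIs) in KO, with a log2 ratio of 0.99 (0.21 to 1.80), but the share of cells with a UMI was 5.56% and 5.77%, and after thinning the ratio was -0.31. FAP markers summed to 8728 CPM in WT and 4248 CPM in KO in the Schwann-like cells, and their part was not tested. Dendritic-like cells showed 98.1 and 104 CPM. Endothelial-like cells were close to empty of Ptgs2, at 5.01 and 6.68 CPM. Small classes were too thin to compare: mast cell-like cells held 38 UMIs in WT and 20 in KO, T cell-like cells 16 and 2, and neutrophil-like cells 1 and 27.

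Ptgs2 is known as a target of inflammatory signals, and lists of induced genes were set beside it. In tenocyte-like cells, where Ptgs2 was lower in KO, 12 of 16 counted genes of a list of cytokine and NF-kB induced genes were called higher and 0 lower (7.65% and 4.34% of all genes counted there), with a median log2 ratio of 1.12 against 0.056 over all genes counted. Il6, an inflammatory cytokine, stood there at 35.3 CPM in WT and 92.8 CPM in KO. In FAP-like cells 11 of 18 were higher and 1 lower (3.61% and 6.38% of all genes counted), with a median of 0.60 against -0.056 over all genes, and Il6 stood at 187 and 607 CPM. Of immediate-early and heat-shock genes, which are also known to respond to tissue dissociation, 11 of 28 were higher in FAP-like cells and 12 of 28 in tenocyte-like cells, and 0 and 1 were lower, beside the same shares over all genes. Of glucocorticoid-induced genes, 1 of 11 was higher and 0 lower in FAP-like cells, and 2 were higher and 2 lower in tenocyte-like cells. The matching ratios of Ptgs2 were 0.022 in FAP-like and -0.96 in tenocyte-like cells. In the same thinned FAP-like cells, Il6 was read in 15.4% of WT cells with a Ptgs2 UMI and in 9.45% of those without one, and in KO in 41.0% and 24.8%. Fos, an immediate-early gene of the list above, went the other way, at 35.1% and 45.6% in WT and 33.9% and 40.3% in KO.

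Ptgs1, the constitutive cyclooxygenase, was spread over several classes and did not differ past 1.5-fold in FAP-like, endothelial-like and macrophage-like cells or the Lyz1-led cluster, the groups in which it was counted. Macrophage-like cells stood at 33.3 CPM (28.2 to 39.2) and 35.0 CPM (30.2 to 40.4), and endothelial-like cells at 32.1 CPM (28.1 to 36.4) and 30.3 CPM (26.3 to 34.6). These neighbours in the order overlap in their intervals. FAP-like cells stood at 20.8 and 18.8 CPM, but most of it was in 2 clusters. The Pi16 Dpp4 cluster held 64.2 CPM (55.5 to 73.9) in WT and 54.6 CPM (47.8 to 62.1) in KO, and the Clu Myoc cluster 35.8 and 39.1 CPM. The Hsd11b1 Mme cluster, at 1.75 and 2.47 CPM, and the Sfrp4 Gdf10 cluster, at 2.99 and 4.38 CPM, were nearly free of it. In MuSC-like cells 0 of 242 WT and 0 of 241 KO cells had a UMI of Ptgs1.

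Ptges, the inducible synthase that makes PGE2 from prostaglandin H2, stood in FAP-like cells at 55.8 CPM (51.8 to 60.0, 734 UMIs) in WT and 41.0 CPM (38.1 to 44.0, 762 UMIs) in KO. Perineurial-like cells were at a level that overlaps it in both libraries, 59.3 CPM (39.4 to 85.7, 28 UMIs) and 37.9 CPM (22.5 to 59.9, 18 UMIs). FAP markers summed to 39906 and 44101 CPM in these perineurial-like cells, and the part of FAP RNA in this level was not tested. In FAP-like cells the log2 ratio of -0.44 (-0.59 to -0.30) lay apart from 0 in counting error but under 1.5-fold. Its order over the subsets was not that of Ptgs2. The Hsd11b1 Mme cluster was highest, at 101 CPM (90.1 to 114) and 77.7 CPM (68.4 to 87.9). The Clu Myoc cluster followed at 71.6 and 60.7 CPM, the Sfrp4 Gdf10 cluster stood at 42.4 and 31.4 CPM, and the Pi16 Dpp4 cluster, the highest for Ptgs2, was lowest for Ptges, at 29.5 and 26.2 CPM. All 4 clusters were lower in KO, 2 of them (Hsd11b1 Mme and Sfrp4 Gdf10) with an interval that leaves out 0. In thinned cells, Ptges was read in 4.02% of WT FAP-like cells with a Ptgs2 UMI (19 of 473) and in 5.75% of those without. In KO these shares were 2.76% (18 of 652) and 4.60%. The 4 clusters, which differ in both genes, were pooled for these shares, and the part of their makeup was not tested. Tenocyte-like cells held 10.2 and 10.5 CPM of Ptges, and macrophage-like cells 4 of 824 WT and 3 of 997 KO cells with a UMI.

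Ptgis, which makes prostacyclin, a vasodilator best known from endothelium, was a tenocyte gene in these libraries. Tenocyte-like cells stood at 446 CPM (428 to 465, 2226 UMIs) in WT and 340 CPM (323 to 358, 1454 UMIs) in KO, with UMIs in 86.3% and 76.8% of cells. The log2 ratio was -0.39 (-0.49 to -0.30), short of 1.5-fold. FAP-like cells held 31.2 and 29.7 CPM, highest in the Pi16 Dpp4 cluster at 50.3 and 58.4 CPM. Endothelial-like cells held 7 UMIs of Ptgis in WT and 4 in KO, or 0.948 and 0.568 CPM. In thinned tenocyte-like cells, Ptgis was read in 23.2% of WT cells with a Ptgs2 UMI (13 of 56) and 29.7% of the others. In KO these shares were 24.2% (8 of 33) and 26.3%.

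**Figure D2:**
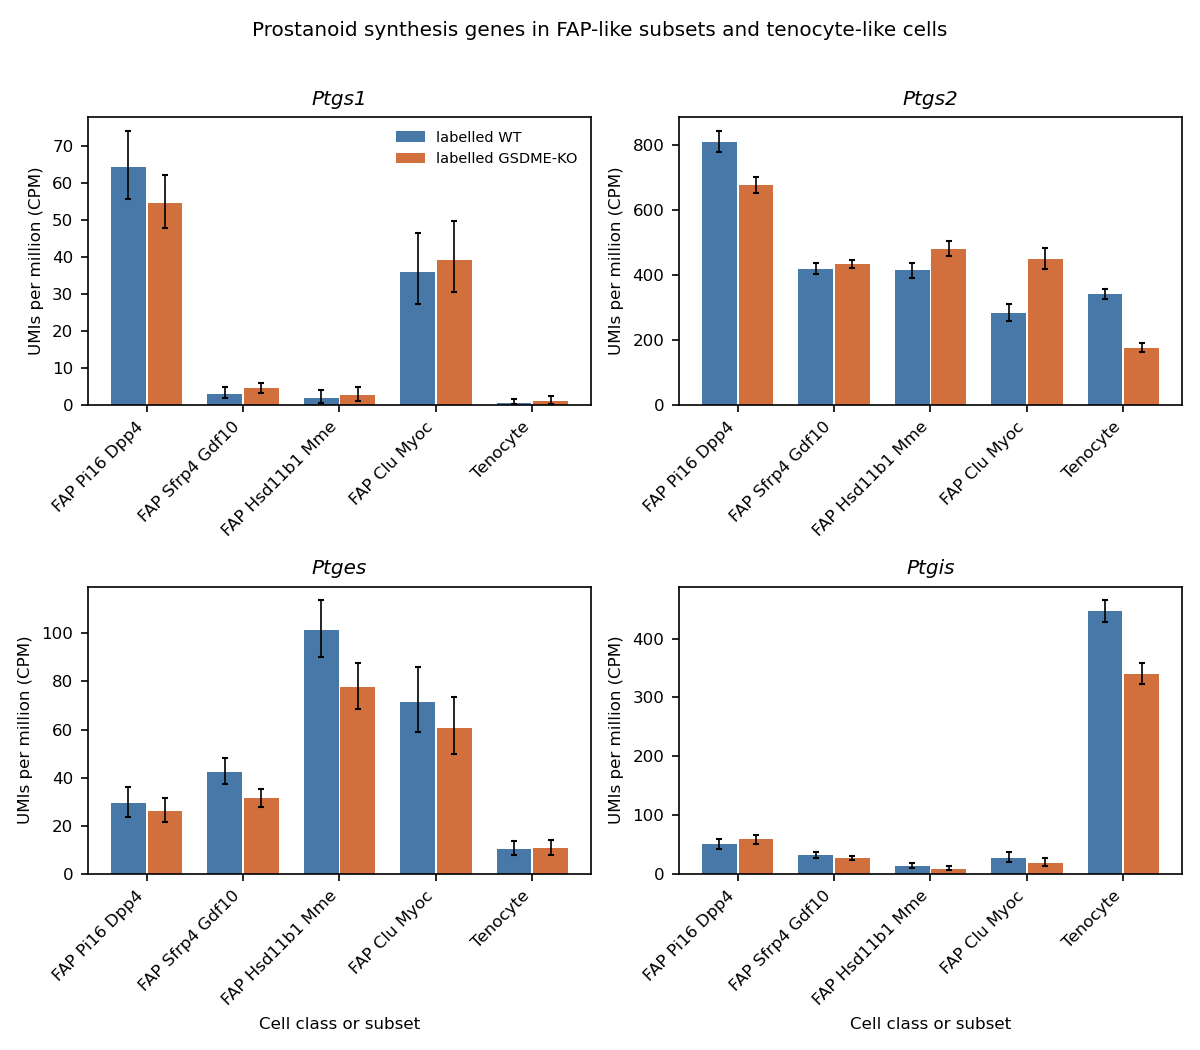
CPM of Ptgs1, Ptgs2, Ptges and Ptgis (one panel each, each axis from 0) in the 4 FAP-like clusters and in tenocyte-like cells; blue bars are the library labelled WT, orange bars the library labelled GSDME-KO, and error bars are exact Poisson 95% intervals. Ptgs2 is highest in the Pi16 Dpp4 cluster (811 and 677 CPM), Ptges in the Hsd11b1 Mme cluster (101 and 77.7 CPM) and Ptgis in tenocyte-like cells (446 and 340 CPM).

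Ptgds, which makes prostaglandin D2, had 63 UMIs in the WT library and 37 in the KO library. MuSC-like cells held 38 and 19 of them, in 15 of 242 and 14 of 241 cells, a level of 21.8 CPM (15.4 to 29.9) and 13.6 CPM (8.21 to 21.3). The log2 ratio of -0.68 was past 1.5-fold, but its interval, -1.55 to 0.15, holds 0.

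Hpgd, which inactivates PGE2, was past 1.5-fold in macrophage-like and tenocyte-like cells. In macrophage-like cells it stood at 43.6 CPM (37.6 to 50.2, 192 UMIs) in WT and 155 CPM (145 to 166, 830 UMIs) in KO, with a log2 ratio of 1.83 (1.61 to 2.07). A UMI was read in 107 of 824 WT cells and 397 of 997 KO cells. After thinning the share was 4.72% (3.31 to 6.51) in WT and 14.7% (12.5 to 17.2) in KO. Of 8647 genes counted in this class, 14, itself included, had a ratio as high or higher.

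Both macrophage-like clusters showed it, by different amounts. In the Lyve1 Cd163 cluster, which has the markers of tissue-resident macrophages, Hpgd stood at 93.0 CPM (79.7 to 108, 174 UMIs) in WT and 202 CPM (184 to 221, 478 UMIs) in KO, with a log2 ratio of 1.12 (0.86 to 1.37). In the Trem2 Gpnmb cluster it stood at 7.09 CPM (4.20 to 11.2, 18 UMIs) in WT and 118 CPM (106 to 131, 352 UMIs) in KO, with a log2 ratio of 4.06 (3.38 to 4.83), the highest of the 6948 genes counted in that cluster. There 13 of 358 WT cells and 161 of 416 KO cells had a UMI, and after thinning 0.84% (0.17 to 2.44) and 10.4% (7.60 to 13.7). Of the macrophage subset markers in this cluster, Trem2 stood at 536 and 613 CPM, Gpnmb at 209 and 258 CPM, and Spp1 at 248 and 370 CPM. Folr2, a marker of resident macrophages, was higher in KO, at 97.0 and 162 CPM, while Timd4, another, went from 15.8 to 0.67 CPM (40 and 2 UMIs) and Lyve1 was close to 0 in both libraries. In the Lyve1 Cd163 cluster Lyve1 stood at 349 and 183 CPM, Cd163 at 406 and 266 CPM and Timd4 at 103 and 34.2 CPM, all lower in KO. Markers of the other macrophage subset were higher there in KO, with Clec4d at 47.0 and 103 CPM and Spp1 at 30.5 and 81.0 CPM, as was Ccr2, at 119 and 181 CPM. The part of these shifts within the clusters in the Hpgd result was not tested.

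Some RNA of other cells moved alongside. In the Trem2 Gpnmb cluster 9 FAP markers summed to 506 CPM in WT and 1029 CPM in KO, with 7 of 8 counted markers called higher, and 8 tenocyte markers to 30.7 and 90.8 CPM with 1 at 0 in KO. In the Lyve1 Cd163 cluster 8 dendritic markers summed to 3271 CPM in WT and 5365 CPM in KO, with 2 of 2 counted markers called higher and 3 at 0 in WT and 2 in KO. The erythroid markers were 3 haemoglobin genes and Alas2. In the Trem2 Gpnmb cluster they went from 553 to 45.4 CPM, and in the Lyve1 Cd163 cluster from 50.2 to 1181 CPM. The part of these cells' RNA in the Hpgd result was not tested. FAP-like cells held Hpgd at 11.5 CPM (9.72 to 13.5) in WT and 9.90 CPM (8.52 to 11.4) in KO, and tenocyte-like cells at 13.8 and 27.8 CPM. Endothelial-like cells gave the background of free RNA, with 2 UMIs in WT and 4 in KO over 1200 and 1198 cells.

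Hpgd was also read in KO in cells that held none in WT. Dendritic-like cells had 0 UMIs in WT and 17 in KO (7 of 126 cells), the Lyz1-led cluster 0 and 18 (9 of 143 cells), and neutrophil-like cells 0 and 18 (5 of 32 cells). Set over a floor of 3 counts in WT, the KO levels in these groups were 4.78-fold, 4.66-fold and 6.24-fold that floor. These folds leave out the counting error of KO. The KO intervals began at 8.90, 8.41 and 74.1 CPM, above the WT upper limits of 3.93, 3.75 and 24.6 CPM. None of these groups had enough Hpgd UMIs for a call. In tenocyte-like cells the log2 ratio was 1.01 (0.57 to 1.46), from 69 and 119 UMIs, but the thinned share of cells was 1.27% in WT and 1.48% in KO. Macrophage markers summed to 46.9 CPM in WT and 89.5 CPM in KO in these tenocyte-like cells, with 4 of 5 counted markers called higher, and their part was not tested. In FAP-like cells it was -0.21 (-0.53 to 0.11). Of the Hpgd UMIs of the KO library, 830 of 1268 lay in macrophage-like cells, and of the WT library 192 of 428.

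Ptger4, the receptor EP4 through which PGE2 raises cyclic AMP, was read in most classes. Endothelial-like cells stood at 75.8 CPM (69.7 to 82.4, 560 UMIs) in WT and 149 CPM (140 to 158, 1047 UMIs) in KO, with a log2 ratio of 0.97 (0.82 to 1.12). A UMI was read in 26.0% of WT and 41.6% of KO cells, and after thinning in 6.55% (5.21 to 8.12) and 13.3% (11.4 to 15.4). Both clusters of the class showed it: the one led by Flt1, Sox17 and Rbp7 stood at 83.1 and 160 CPM, with a log2 ratio of 0.95 (0.78 to 1.11), and the other at 50.3 and 105 CPM, with a log2 ratio of 1.06 (0.67 to 1.47). Of 10101 genes counted in the class, 90, itself included, had a ratio as high or higher. Erythroid markers were higher in the same KO cells, at 5189 against 1252 CPM over 4 markers, and the class's own 8 markers summed to 9634 and 10394 CPM. The part of the erythroid RNA in the result was not tested.

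Dendritic-like cells were the highest class for Ptger4 in WT, at 112 CPM (91.6 to 136), and stood at 89.9 CPM (73.2 to 109) in KO, intervals that overlap. Their WT interval also overlaps that of mast cell-like cells, at 104 CPM (53.9 to 182, 12 UMIs), and that of mural-like cells (63.9 to 122 CPM). In KO the mast cell-like cells stood at 81.4 CPM (16 UMIs). Macrophage-like cells stood at 61.0 and 72.0 CPM and FAP-like cells at 26.1 and 31.4 CPM, both within 1.5-fold. MuSC-like cells, a known target of PGE2, stood at 30.4 CPM (53 UMIs) in WT and 48.1 CPM (67 UMIs) in KO, with a log2 ratio of 0.66 (0.12 to 1.21), but the share of cells with a UMI was 16.9% and 18.7%, and after thinning 4.66% in WT and 1.27% in KO, where the log2 ratio was -1.87. Their own 7 markers summed to 2117 CPM in WT and 2568 CPM in KO. Mural-like cells, the pericytes and smooth muscle of vessel walls, went the other way, at 89.4 CPM (40 UMIs) in WT and 50.5 CPM (26 UMIs) in KO, with a log2 ratio of -0.82 (-1.59 to -0.075). Erythroid markers in these mural-like cells summed to 121 CPM in WT and 17351 CPM in KO, and FAP markers to 2286 and 4546 CPM, and their part was not tested. Defined by a marker score per cell in place of clusters, mural-like cells gave a ratio of 0.48. Tenocyte-like cells, with the same higher macrophage markers in KO as given for Hpgd, stood at 15.8 and 24.1 CPM, with a log2 ratio of 0.60 (0.17 to 1.05). Ptger2, the receptor EP2, had 58 UMIs in WT and 99 in KO over all cells, and its log2 ratio there, 0.59 (0.10 to 1.08), lay on the 1.5-fold line. Macrophage-like cells were the single named class in which it was counted, at 4.54 and 5.61 CPM, within 1.5-fold. The Lyz1-led cluster held 16.3 CPM (16 UMIs) in WT and 25.2 CPM (32 UMIs) in KO, and mast cell-like cells 26.1 CPM in WT and 5.09 CPM in KO, on 3 UMIs and 1.

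**Figure D3:**
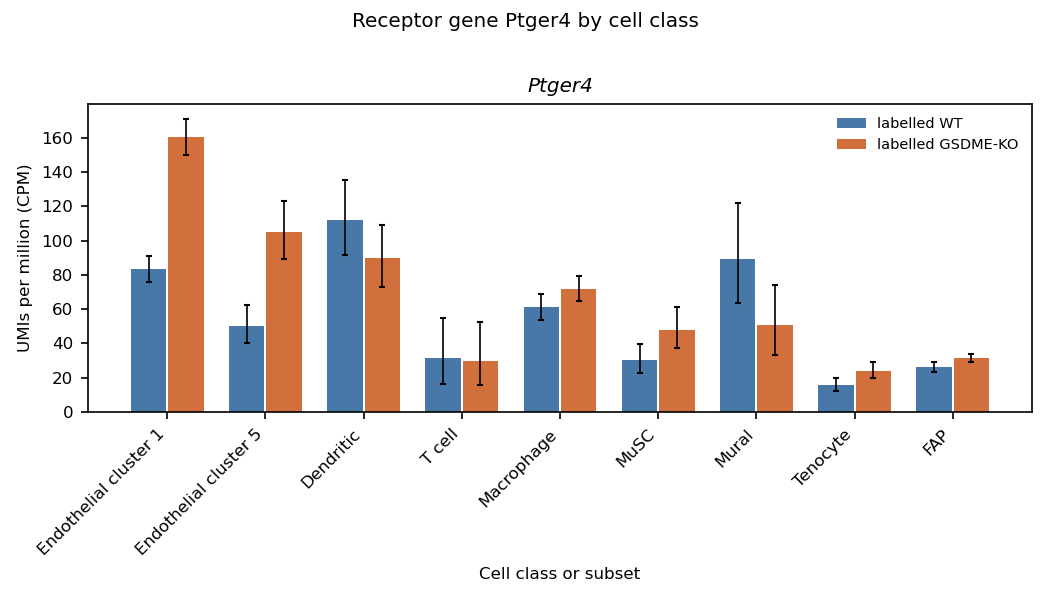
CPM of Ptger4 by cell class (axis from 0); blue bars are the library labelled WT, orange bars the library labelled GSDME-KO, and error bars are exact Poisson 95% intervals. Both endothelial-like clusters stand higher in KO (83.1 against 160 CPM and 50.3 against 105 CPM), and in dendritic-like and T cell-like cells the intervals of the libraries overlap.

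Alox5ap, which presents arachidonic acid to 5-lipoxygenase, was a gene of myeloid cells and stayed within 1.5-fold between the libraries in macrophage-like, dendritic-like and FAP-like cells and the Lyz1-led cluster. Neutrophil-like cells stood at 875 CPM (731 to 1038) in WT and 973 CPM (818 to 1148) in KO, with UMIs in 23 of 23 and 31 of 32 cells. The Lyz1-led cluster stood at 860 and 749 CPM, and its WT interval (803 to 920) overlaps that of the neutrophil-like cells. Dendritic-like cells stood at 475 CPM (431 to 521) and 519 CPM (477 to 563), and macrophage-like cells at 398 CPM (379 to 417) and 375 CPM (359 to 392.2), a log2 ratio of -0.083 (-0.18 to 0.0099). FAP-like cells, with 1.67 and 2.31 CPM, gave the background. In macrophage-like cells Alox5, the lipoxygenase itself, was at 50.1 CPM in WT and 53.5 CPM in KO.

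Ltc4s, which makes the first of the cysteinyl leukotrienes, was held by the Lyve1 Cd163 macrophages. They stood at 390 CPM (362 to 419, 729 UMIs) in WT and 266 CPM (245 to 287, 630 UMIs) in KO, with a log2 ratio of -0.55 (-0.71 to -0.40) that lies just under 1.5-fold. The Trem2 Gpnmb macrophages stood at 48.1 and 57.5 CPM. Over the whole class the level was 193 CPM (180 to 206) in WT and 150 CPM (140 to 161) in KO. Lyve1 and Cd163, markers of the cluster in which Ltc4s was lower, were lower there too, as given above. In WT, Hpgd was read in 9.65% of thinned macrophage-like cells with an Ltc4s UMI (11 of 114) and in 3.83% of those without one. In KO these shares were 17.2% (21 of 122) and 14.3%. Both genes were higher in the Lyve1 Cd163 cluster than in the Trem2 Gpnmb cluster in each library. The clusters were pooled for these shares, and the part of this was not tested.

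**Figure D4:**
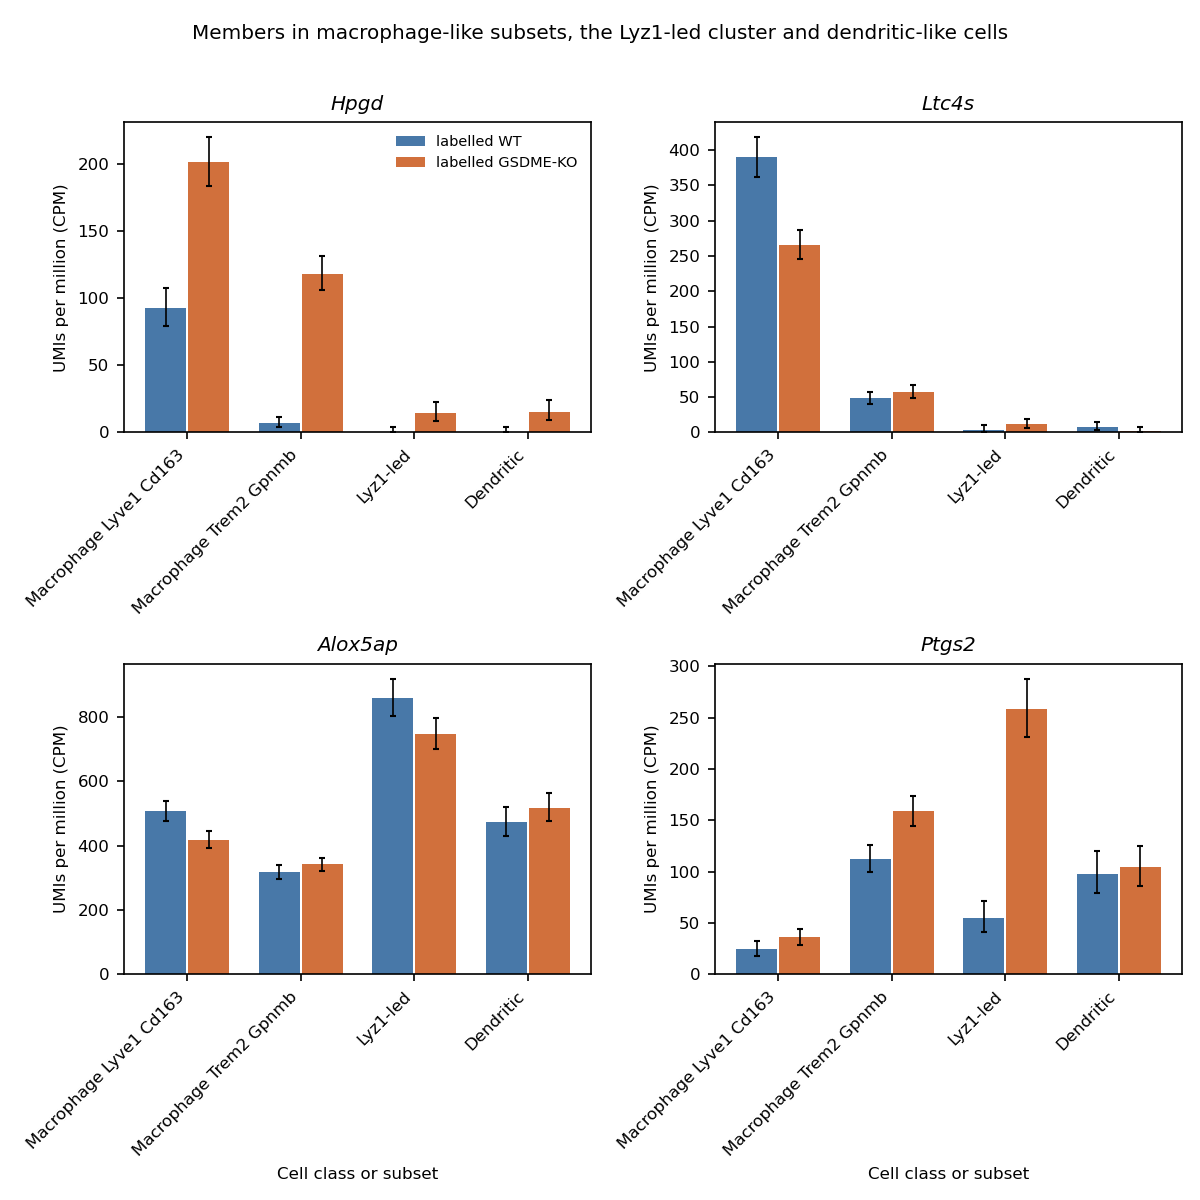
CPM of Hpgd, Ltc4s, Alox5ap and Ptgs2 (one panel each, each axis from 0) in the 2 macrophage-like clusters, the Lyz1-led cluster and dendritic-like cells; blue bars are the library labelled WT, orange bars the library labelled GSDME-KO, and error bars are exact Poisson 95% intervals. Hpgd goes from 7.09 to 118 CPM in the Trem2 Gpnmb cluster, Ltc4s is 390 and 266 CPM in the Lyve1 Cd163 cluster, and Alox5ap is above 300 CPM in all 4 groups of both libraries.

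Counted by class, no member of the 7 counted in FAP-like cells was called, where 3.61% of 11539 genes were called higher in KO and 6.38% lower. In endothelial-like cells 1 of 4 was called higher (Ptger4) and 0 lower, against 4.24% and 3.83% of 10101 genes. In macrophage-like cells 1 of 7 was higher (Hpgd) and 0 lower, against 4.75% and 7.34% of 8647 genes. In tenocyte-like cells 2 of 5 were higher (Hpgd and Ptger4) and 1 lower (Ptgs2), against 7.65% and 4.34% of 9132 genes. Small classes had a higher background. In MuSC-like cells 1 of 2 was higher (Ptger4) and 1 lower (Ptgds), against 13.4% and 9.76% of genes. In mural-like cells the single member counted was lower (Ptger4), against 7.82% higher and 10.6% lower. In Schwann-like cells the single member counted was higher (Ptgs2), against 6.84% and 5.67%. In the Lyz1-led cluster 1 of 3 was higher (Ptgs2) and 0 lower, against 8.91% and 8.36%. None of the 3 members counted in dendritic-like cells was called, nor the 1 counted in perineurial-like cells. The shares over all genes are not given here for these 2 classes. With 1 to 7 members counted in a class, each of these shares rests on few genes.

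**Figure D5:**
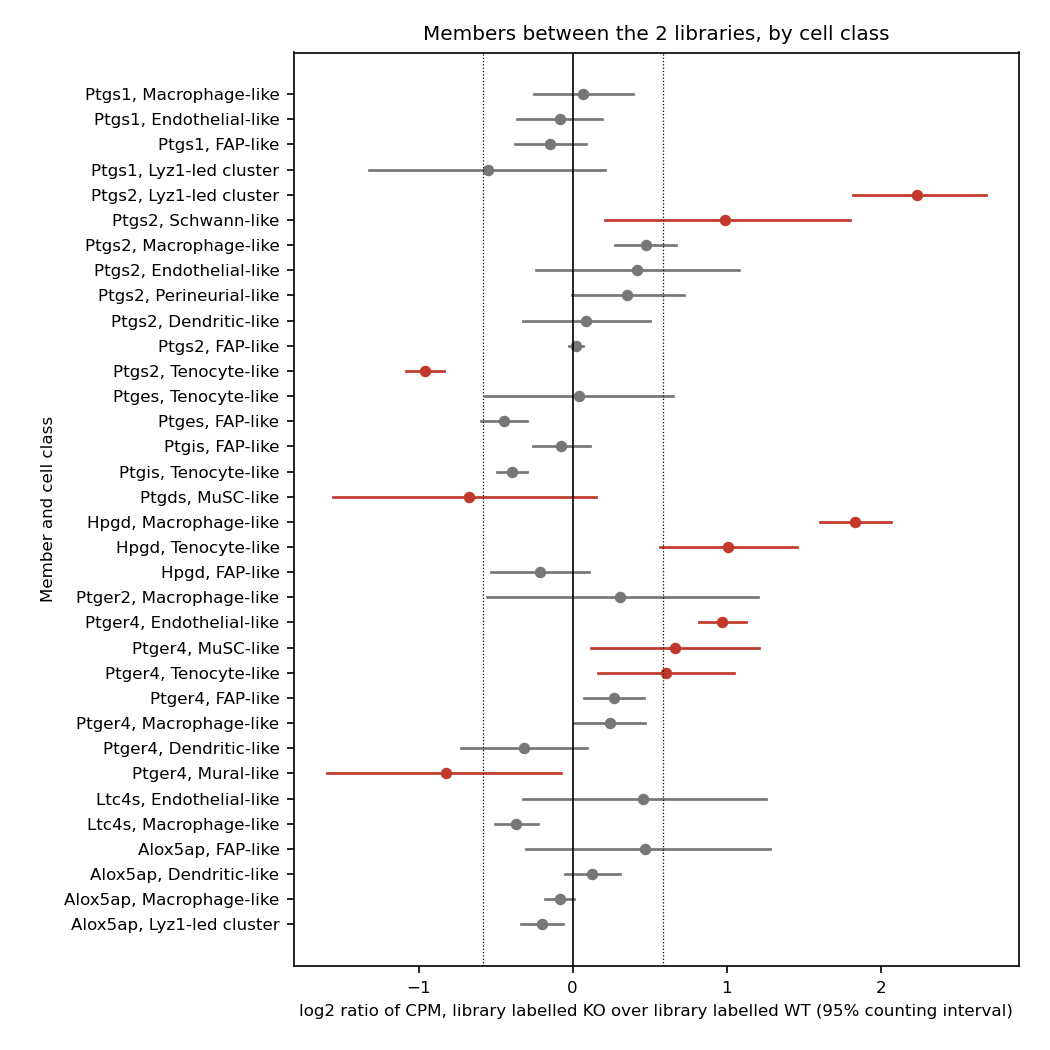
Ratio of CPM between the libraries, KO divided by WT, on a log2 scale (x axis), for each member in each class with at least 50 UMIs and 50 cells per library (y axis); points are the ratios, lines their 95% counting intervals, dotted lines 1.5-fold, and red marks the ratios past it. Ptgs2 in the Lyz1-led cluster (2.24) and Hpgd in macrophage-like cells (1.83) lie farthest to the right, and Ptgs2 in tenocyte-like cells (-0.96) farthest to the left.

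Of 46 other listed genes of these pathways, those past 1.5-fold are given for macrophage-like, tenocyte-like, endothelial-like and FAP-like cells. Genes of this list were also called in MuSC-like, perineurial-like, dendritic-like, T cell-like and lymphatic endothelial-like cells and the Lyz1-led cluster. Those calls are not listed here, except that Cysltr1, given below for macrophage-like cells, was called higher in dendritic-like cells too. In macrophage-like cells 2 of 24 counted were higher in KO and 0 lower, where all genes gave 4.75% and 7.34%: Pla2g4a, the phospholipase that frees arachidonic acid, at 8.62 and 19.3 CPM, and Cysltr1, a receptor for cysteinyl leukotrienes, at 30.9 and 56.9 CPM. In tenocyte-like cells 3 of 20 were higher and 1 lower, beside 7.65% and 4.34% of all genes. Ptgfr, the receptor for prostaglandin F2 alpha, stood at 5.01 and 14.96 CPM, Ptgr1, which inactivates leukotrienes and prostaglandins, at 5.21 and 10.1 CPM, the resolvin and chemerin receptor Cmklr1 at 4.21 and 8.88 CPM, and Mgst2, lower in KO, at 17.0 and 9.59 CPM. In endothelial-like cells 1 of 18 was higher and 3 lower, beside 4.24% and 3.83%. Abcc4, a transporter that exports PGE2, stood at 23.7 and 44.6 CPM, with a log2 ratio of 0.91 (0.64 to 1.19), and the lower genes were the prostaglandin importer Slco2a1 (5.96 and 2.56 CPM), the prostacyclin receptor Ptgir (4.47 and 2.56 CPM) and the lipoxygenase Alox12 (5.42 and 3.55 CPM). In FAP-like cells 0 of 24 were higher and 1 lower, beside 3.61% and 6.38%, the lower gene being the thromboxane receptor Tbxa2r, at 3.27 and 1.72 CPM.

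Several of these genes reached 100 CPM in a class in WT or KO. Macrophage-like cells held Hpgds, the haematopoietic prostaglandin D2 synthase, at 148 and 176 CPM, and Tbxas1, the thromboxane synthase, at 109 and 107 CPM, both at least 2 times the next class in both libraries. FAP-like cells held Dpep1, a dipeptidase that converts leukotriene D4, at 274 and 242 CPM, and mural-like cells Ggt5, which converts leukotriene C4, at 139 and 132 CPM. Ltc4s, which acts before both, had 7 UMIs in WT and 16 in KO in FAP-like cells, and 1 and 0 in mural-like cells. Neutrophil-like cells held most per UMI of Cyp4f18, which inactivates leukotriene B4, at 220 and 361 CPM, from 33 and 52 UMIs. In mast cell-like cells the leukotriene B4 receptor Ltb4r1 stood at 165 and 158 CPM and Ptgir at 78.2 and 224 CPM, on 9 and 44 UMIs. Mature muscle-like cells were highest for Prxl2b, a prostaglandin F synthase, at 179 and 298 CPM. They were also highest for Mgst3, at 268 and 169 CPM, and for Pla2g12a, at 112 and 71.7 CPM. These levels rest on 31 WT and 61 KO cells, where 3 counts make 33.5 and 8.60 CPM. Mural-like cells were next for Mgst3, at 226 and 153 CPM. Schwann-like cells were highest for Plaat3, at 204 and 220 CPM, and MuSC-like cells for Ptges3, at 408 and 462 CPM, and Akr1b3, at 302 and 208 CPM.

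By pattern over the 16 classes in each library, 32 points that share cells, depth and class size, the genes most like each member were found by Pearson's r of log2(CPM + 10) among genes with at least 200 UMIs. For Alox5ap they were Ptafr, Cd300a and Mpeg1 (r from 0.952 to 0.966), for Ptgis Angptl7, Rab15 and Mettl24 (0.925 to 0.933), for Ptges Podn, Tmem132c and Lvrn (0.906 to 0.930), and for Ltc4s Mrc1, Ccl24 and Ms4a7 (0.879 to 0.884). Hpgd was most like Clec5a, Espl1 and Slc40a1 (0.789 to 0.865), Ptgds most like Myog, Asb5 and Pnmal2 (0.835 to 0.851), and Ptgs2 most like Steap3, Ecm1 and Dnm1 (0.749 to 0.792). The likeness was lower for Ptger2, to Lpcat2, Galc and Ndst2 (0.754 to 0.781), for Ptgs1, to Nrp1, Ifih1 and Adam15 (0.737 to 0.771), and for Ptger4, to C9orf72, Cgas and Rapgef2 (0.677 to 0.717).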

How the data were processed

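Single cells of both libraries were captured with a 10x Genomics 5′ kit, per the study's methods. The authors deposited natural log values, ln(1 + UMIs per 10000), for 13432 cells. The submitters' processing notes name Cell Ranger 2.1.1 and build mm10. The study's methods name another Cell Ranger version, Seurat, DoubletFinder, removal of cells rich in mitochondrial RNA, and Harmony, and give a larger cell number than the deposited table holds. No mitochondrial gene is listed in it. The deposited table has no column of any other sample (0).

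Whole UMIs were recovered from the 29528482 values above 0 by dividing by each cell's value of 1 UMI. The largest distance from a whole number was 0.247, and 12 values lay over 0.1 away. Libraries followed the barcode endings that the series design gives. Cells were clustered in Python 3.11.15 with numpy 2.4.6, scipy 1.17.1, scikit-learn 1.9.0 and igraph 0.11.9 (2000 variable genes without the members and 46 pathway genes, 30 principal components, a Harmony step rewritten in numpy, 20 neighbors, Louvain resolution 0.8, seed 1). Of 29 clusters 22 were named. Names came from the marker list whose mean log2 fold was highest (10 CPM added), where at least 3 of its markers were detected, at least 1 of its genes stood among its 10 leading genes, no other type had more there, and no other lineage reached 50% of its mean fold, or 25% with under 3 leading markers. These rules were set after the clusters were seen. Pericyte and smooth muscle sets were joined as mural, and erythroid markers named no cluster. Doublets were called with Scrublet in scanpy 1.11.5 (1.59% of WT and 1.54% of KO cells) and kept, since the study's methods state that doublets had been removed.

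CPM of summed UMIs were compared between libraries without a test. The members and lists were chosen with earlier results of these data known. The genes named are all 10 members, pathway genes at 100 CPM or past 1.5-fold in the classes described, the 3 most alike genes per member, and Gsdme. Alox5, Il6, Fos and the single marker genes picked from the lists fall outside that rule and were chosen after their values were seen. Intervals of ratios are exact binomial ones on each library's part of the UMIs, and shares have exact binomial intervals after thinning to 1000 UMIs, which left out cells below that (686 WT, 633 KO). UMI recovery and calls were tested on simulated data.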

Additional observations from a re-analysis of the deposited data

Results flagged for a closer look

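Ptgs2 and Ptger4 were called in opposite directions in different cell classes. Ptgs2 was lower in KO in tenocyte-like cells (log2 ratio -0.96) and higher in Schwann-like cells (0.99) and in the Lyz1-led cluster (2.24). Ptger4 was higher in KO in endothelial-like (0.97), MuSC-like (0.66) and tenocyte-like cells (0.60) and lower in mural-like cells (-0.82). The differences between the classes were not tested, since each genotype had 1 library.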

How the results depend on the processing

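No paired analysis was possible because each genotype had 1 library and no test was run. Recomputing 34 log2 ratios under 10 alternatives gave 323 values, of which 290 stayed inside the main ratio's counting interval, however wide. Another 29 lay outside it, and 4 reversed the sign of a called ratio. Ptgds in MuSC-like cells reversed to 0.23 with means over cells, and Ptger4 in mural-like cells to 0.48 with a marker score. With cells thinned to 1000 UMIs, Ptger4 in MuSC-like cells reversed to -1.87 and Ptgs2 in Schwann-like cells to -0.31. Sign changes of ratios that were not called are not among these 4. Ptges in tenocyte-like cells, for example, kept its sign in 6 of 10 alternatives. Of 10 called ratios, 3 stayed past 1.5-fold in every alternative run for them: Ptger4 in endothelial-like cells, Hpgd in macrophage-like cells and Ptgs2 in the Lyz1-led cluster, the last under 5 alternatives only. Members led by 1 class numbered 2, against 4 without Harmony, 4 with the members kept among the clustered genes and 1 with a marker score. Members higher in KO in FAP-like cells numbered 0, against 1 with means over cells, resolution 0.4, a marker score or at least 20 UMIs, and 2 with no UMI minimum. In tenocyte-like cells the 2 higher became 1 without Harmony, at resolution 1.2, with members kept, when centred on the class median or at 2-fold, 0 when thinned and 4 with no minimum, and the 1 lower became 0 when thinned or at 2-fold and 2 with no minimum. In endothelial-like cells the 1 higher became 2 with means over cells, a marker score or no minimum and 0 at 2-fold, and the 0 lower became 2 with no minimum. In macrophage-like cells the 1 higher became 2 with means over cells, thinning, the top cell left out or no minimum, and the 0 lower became 1 with means over cells, thinning or no minimum. In the other classes the 2 higher became 0 with means over cells or at 2-fold, 4 at resolution 0.4 or at least 20 UMIs, 5 with a marker score, 1 when thinned, with the top cell left out or at least 100 UMIs, and 20 with no minimum. There the 2 lower became 1 with means over cells, at resolution 1.2, with members kept or the top cell left out, 4 with a marker score, 0 when thinned, at least 100 UMIs or at 2-fold, and 11 with no minimum. Leaving out the top cell was chosen after the data were seen. The cause of these changes was not tested. Counting depth limits Ptgds, Ptger2 and the small classes.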
